A study of Mus musculus with 38 samples.

Results

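Chemokines are small secreted proteins that steer the migration of leukocytes, and their receptors are G protein-coupled receptors on the migrating cells. CC and CXC chemokines are named for the spacing of their first cysteines, and many of their genes lie side by side in clusters that arose by duplication. In the thymus, Ccr9, Ccr7, Ccr4 and Cxcr4 on thymocytes read ligands such as Ccl25, Ccl19, Ccl21a and Cxcl12 made by the stroma. SATB1, a nuclear protein abundant in thymocytes, binds base unpairing regions (BURs), AT-rich DNA in which stretches of 1 strand lack either C or G.

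The genes described are the protein-coding genes of the mouse annotation whose symbols are Ccl, Cxcl, Ccr or Cxcr with a number, together with Xcl1, Cx3cl1 and Cx3cr1. They number 56 of 22284 protein-coding genes, 37 of them ligands and 19 receptors. For each gene, the window counted was the gene body with 20 kb on either side. Windows of neighbouring genes overlapped, so the 56 windows joined into 37 separate loci, 14 of which held several genes. The Ccl2, Ccl7, Ccl11, Ccl12 and Ccl8 locus on chromosome 11 held 5 genes, and peaks there were counted for more than 1 gene.

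The data are 11 peak lists from C57BL/6 mice, and every chromatin sample was labelled SATB1 wild-type. Urea ChIP-seq of SATB1, in which crosslinked chromatin is spun through urea to strip proteins that are not tightly held on DNA, was done in 2 replicates each of thymocytes, brain and skin with the home-made antibody 1583D. Standard ChIP-seq of SATB1, from sonicated chromatin without the urea step, was done in 2 replicates of thymocytes, the first with the Abcam antibody ab109122 and a label of 15 s sonication and the second with 1583D and 150 s. CTCF, a DNA-binding protein of domain borders, was mapped by urea ChIP-seq in 1 list each of thymocytes and skin. The BUR reference map is 1 list of thymocyte DNA fragments bound in vitro by recombinant his-tagged SATB1. The labels give P13 for thymus and skin, and 5 and 6 weeks for the brain replicates, while some titles and protocols give other ages. Among them, the titles of standard replicate 1 and of the thymocyte CTCF list give 6 weeks. The thymocyte urea replicates used 4 and 2 µl of antibody, the brain replicates 10 and 12 cycles of amplification, and the skin replicates 55 and 60 s of sonication. The labels do not name the animals, so p-values measure only the spread between these samples. Peak lists hold no expression levels, and therefore cell identity could not be checked against marker genes. Knockout samples, inputs and the second thymocyte CTCF sample were not analysed here.

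The peak lists give no read counts, so depth is unknown from these files and was not used here, and the lists differed in length. They held 45049 and 38882 peaks in thymocytes, 117963 and 109154 in brain and 11210 and 10846 in skin by urea ChIP-seq, and 48175 and 27147 by standard ChIP-seq. In every sentence below, the 2 values of a group are replicates 1 and 2 in that order, and a shared peak is a peak of replicate 1 that overlaps a peak of replicate 2 by at least 1 bp.

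The sequences under 5 of the urea SATB1 peaks near these genes are given first, because they show what kind of DNA was recovered. They are the 5 shared thymocyte or skin peaks with the highest mean fold enrichment, 1 per locus, apart from the Cxcl5 peak, which lies in a 3′ UTR and is described by its values alone. Each is 300 bases around the summit, 5′ to 3′ on the forward strand of NCBIM37 (mm9), and capitals mark the longest stretch that lacks C or lacks G.

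Ccl20, chr1:83102825-83103124: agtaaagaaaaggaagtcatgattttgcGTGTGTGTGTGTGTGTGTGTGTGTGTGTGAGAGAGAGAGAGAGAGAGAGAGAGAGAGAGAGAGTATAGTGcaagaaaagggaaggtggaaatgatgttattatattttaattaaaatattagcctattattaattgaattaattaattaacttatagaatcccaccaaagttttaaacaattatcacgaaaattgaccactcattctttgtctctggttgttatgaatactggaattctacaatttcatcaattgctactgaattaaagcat
Ccl12, chr11:81911864-81912163: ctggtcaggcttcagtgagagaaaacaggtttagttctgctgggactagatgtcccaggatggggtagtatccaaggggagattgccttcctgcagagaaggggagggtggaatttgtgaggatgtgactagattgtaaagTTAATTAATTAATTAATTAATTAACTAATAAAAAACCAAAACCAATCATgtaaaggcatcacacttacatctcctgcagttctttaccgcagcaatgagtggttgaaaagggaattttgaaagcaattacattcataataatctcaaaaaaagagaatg
Ccr6, chr17:8462550-8462849: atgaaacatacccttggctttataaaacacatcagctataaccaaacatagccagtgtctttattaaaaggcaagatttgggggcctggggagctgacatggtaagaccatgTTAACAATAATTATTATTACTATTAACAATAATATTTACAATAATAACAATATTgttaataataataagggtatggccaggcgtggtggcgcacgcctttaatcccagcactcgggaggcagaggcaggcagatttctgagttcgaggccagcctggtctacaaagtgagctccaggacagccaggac
Ccr9, chr9:123596630-123596929: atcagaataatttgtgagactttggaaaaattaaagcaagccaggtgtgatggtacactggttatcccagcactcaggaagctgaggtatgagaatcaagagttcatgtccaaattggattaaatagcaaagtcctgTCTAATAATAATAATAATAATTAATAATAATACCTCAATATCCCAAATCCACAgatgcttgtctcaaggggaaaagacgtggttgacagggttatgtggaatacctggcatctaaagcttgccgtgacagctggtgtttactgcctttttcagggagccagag
Cxcl2, chr5:91345262-91345561: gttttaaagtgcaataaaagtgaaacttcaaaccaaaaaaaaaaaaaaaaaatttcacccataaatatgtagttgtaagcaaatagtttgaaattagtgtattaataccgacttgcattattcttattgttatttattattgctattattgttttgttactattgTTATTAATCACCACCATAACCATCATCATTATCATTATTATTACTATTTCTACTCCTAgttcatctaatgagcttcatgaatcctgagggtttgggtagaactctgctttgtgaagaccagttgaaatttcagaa

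The capitals span 70 bases at Ccl20, 49 at Ccl12, 54 at Ccr6, 53 at Ccr9 and 58 at Cxcl2. For contrast, the next sequence is that of the standard SATB1 peak with the highest mean fold enrichment outside any protein-coding gene, which lies downstream of Ccl1 and was chosen after its values were seen.

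Ccl1, chr11:81988359-81988658: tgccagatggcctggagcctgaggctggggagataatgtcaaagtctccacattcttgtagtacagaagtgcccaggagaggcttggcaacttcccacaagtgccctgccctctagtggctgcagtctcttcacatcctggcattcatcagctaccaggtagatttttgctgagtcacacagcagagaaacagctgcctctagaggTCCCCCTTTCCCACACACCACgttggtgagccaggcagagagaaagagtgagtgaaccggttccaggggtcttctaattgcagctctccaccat

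Its longest stretch without G spanned 21 bases and its AT content was 46.3%, against 57.7% to 72.3% in the 5 urea sequences. Over the shared peaks in the chemokine windows, this contrast held for the medians, but the ranges overlapped. The longest stretch without C or without G had a median of 49.0 bases (18 to 70) over the 16 shared urea peaks of thymocytes. Over the 47 shared standard peaks, its median was 24.0 bases (12 to 44). The AT content had a median of 65.7% (54.9% to 72.5%) over these urea peaks and of 46.7% (31.6% to 60.5%) over these standard peaks. The medians over all shared peaks of the genome were 68.1% and 46.4%, so the peaks near chemokine genes had about the base composition of their lists.

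BURs themselves were present near most chemokine genes. Of the 56 genes, 46 had a BUR in the window (82.1%), and over all protein-coding genes the percentage was 86.6%. The numbers were highest at Ccr9 with 10 BURs, Ccl20 with 8, Cxcl1 with 7, and Cxcl2, Ccl1 and Ccr3 with 6 each. These are counts per window and not densities, and the windows differ in length. Ccr9 and Ccl1 have annotated spans of 104 and 129 kb, against 2.40 kb for Ccl20. No BUR was listed at Cxcr7, a scavenging receptor for Cxcl12, nor at Ccr4, Ccr10, Cxcr3, Cxcr6, Cxcl14, Ccl9, Ccl21a, Ccl21b and Ccl21c. Chemokine genes are short, with a median length of 4.76 kb against 15.5 kb for all genes, so densities were compared as well. The joined chemokine windows covered 2.38 Mb and held 112 BURs, or 47.1 per Mb, and the joined windows of all genes held 72.7 per Mb. The map has no replicate, so this difference carries no error.

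**Figure D1:**
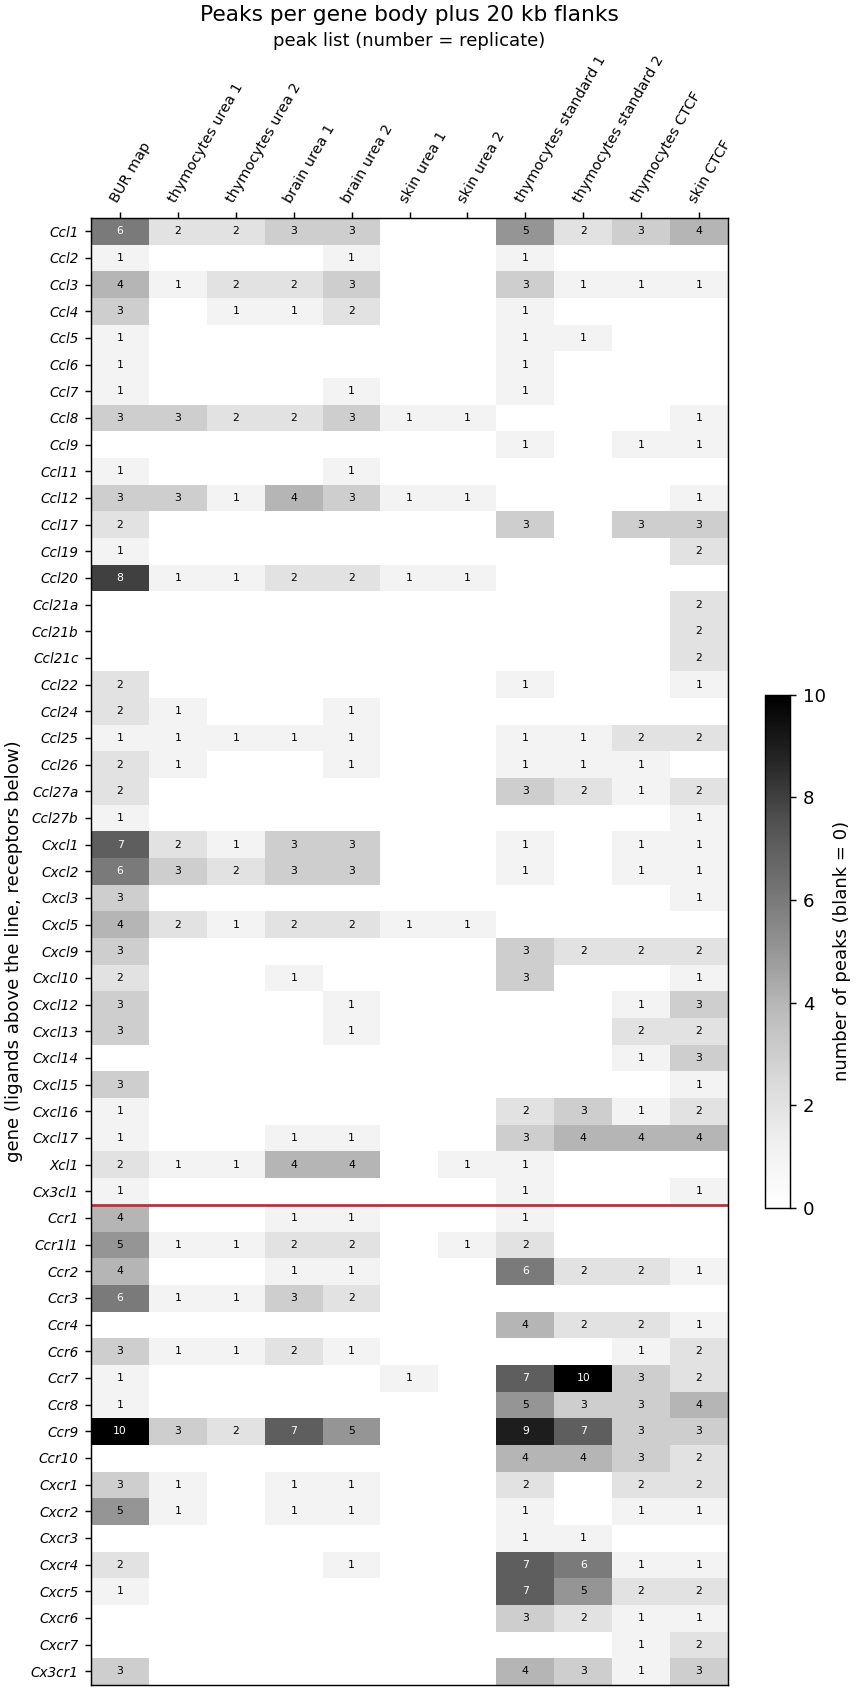
Number of peaks in each plotted gene body plus 20 kb flanks (rows, ligands above the line and receptors below) in each of the 11 lists (columns, the number giving the replicate). Darker cells hold more peaks and blank cells none, with urea SATB1 peaks mostly at a few ligand loci and at Ccr9, Ccr6, Ccr3 and Ccr1l1, and standard SATB1 peaks mostly at receptors such as Ccr9, Ccr7, Cxcr4 and Cxcr5.

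In thymocytes, 14 of the 56 genes had a shared urea SATB1 peak, namely 10 ligands (Ccl1, Ccl3, Ccl8, Ccl12, Ccl20, Ccl25, Cxcl1, Cxcl2, Cxcl5 and Xcl1) and 4 receptors (Ccr1l1, Ccr3, Ccr6 and Ccr9). This was 25.0% of the genes, below the 39.5% of all protein-coding genes. By replicate, 18 and 15 chemokine genes had a urea peak, against 46.2% and 43.9% of all genes. The joined windows held 23 and 17 urea peaks, or 9.66 and 7.14 per Mb, and windows of all genes held 14.7 and 12.8 per Mb. Of the 23 peaks of replicate 1, 16 were shared with replicate 2 (69.6%, against 73.3% over the whole list).

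The peak upstream of Ccl20, which encodes the ligand of Ccr6 and attracts dendritic cells and Th17 cells, was present in all 6 urea SATB1 lists. Its fold enrichment was 27.3 and 27.8 in thymocytes, 24.0 and 21.3 in brain, and 19.7 and 16.2 in skin. The thymocyte values lay above those of brain and the brain values above those of skin, without overlap, although fold enrichment is relative to the background of each sample and is not scaled between samples. The peak spans chr1:83102685-83103255, its centre is 10.4 kb upstream of the start of Ccl20, and it lies on a BUR.

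The Cxcl5 peak at chr5:91190073-91190535 lies in the 3′ UTR of this neutrophil attractant, 1.89 kb from its start, and also coincided with a BUR. It had a fold enrichment of 22.5 and 24.8 in thymocytes, 19.8 and 18.9 in brain, and 15.9 and 18.2 in skin. The thymocyte replicates were again above the other 4 lists, and brain and skin did not overlap.

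Another peak found in all 6 lists lies at chr11:81911805-81912218, 3.33 kb upstream of Ccl12, a monocyte attractant, and inside the windows of both Ccl12 and Ccl8. Its fold enrichment was 16.3 and 17.2 in thymocytes, 12.6 and 8.82 in brain, and 8.17 and 9.92 in skin. Here thymocytes stood above both other tissues, and brain and skin overlapped. These 3 peaks made Ccl20, Cxcl5, Ccl12 and Ccl8 the 4 chemokine genes (7.14%) with a shared urea peak in all 3 tissues, against 15.8% of all genes.

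Ccr6, the receptor of Ccl20, and the gene pair Cxcl1 and Cxcl2, which encode ligands of Cxcr2 on neutrophils, had shared peaks in thymocytes and brain. The peak downstream of Ccr6, at chr17:8462479-8462899, had a fold enrichment of 16.7 and 13.3 in thymocytes and of 18.4 and 19.1 in brain. The peak between Cxcl1 and Cxcl2 had 14.8 and 11.9 in thymocytes and 18.2 and 19.9 in brain. The peak downstream of Cxcl2, at chr5:91345251-91345774, had 18.8 and 10.4 in thymocytes, a spread wider than at the other shared peaks, and 22.4 and 21.5 in brain. At these 3 peaks, both brain values exceeded both thymocyte values, and skin had no peak.

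Ccr9, the receptor that guides thymocytes and gut-homing T cells towards Ccl25, had 2 shared urea peaks. One, at chr9:123686536-123686916 in an intron, had a fold enrichment of 12.9 and 10.0 in thymocytes and of 15.4 and 14.9 in brain. The other, at chr9:123596597-123596972, had 13.7 and 15.6 in thymocytes and 10.9 and 7.29 in brain, so the order of the tissues differed between the 2 peaks of this gene. The second peak falls in an intron of the annotated gene and is 86.7 kb from the coding sequence, because the annotation gives Ccr9 a span of 104 kb. Ccl25, the ligand, had 1 shared peak with a low fold enrichment of 5.59 and 5.46 in thymocytes and 6.52 and 6.85 in brain.

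Ccr3, an eosinophil receptor, had an intronic peak at chr9:123942563-123943001 with a fold enrichment of 11.4 and 11.0 in thymocytes and of 18.3 and 19.7 in brain. Ccr1l1, a relative of Ccr1, had an upstream peak with 9.65 and 8.84 in thymocytes, 7.67 and 13.3 in brain, and 4.71 in skin replicate 2, with no peak in skin replicate 1. Xcl1, the ligand of Xcr1 on dendritic cells, had an upstream peak with 6.10 and 7.54 in thymocytes and 6.90 and 7.73 in brain. Ccl3, an attractant of monocytes and T cells, had a downstream peak with 5.76 and 6.87 in thymocytes and 8.16 and 7.73 in brain. The values of the 2 tissues overlapped at Xcl1 and at Ccr1l1, and were higher in brain at Ccl3 and Ccr3.

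Ccl1, the ligand of Ccr8, had 2 shared thymocyte peaks on either side of its annotated span of 129 kb. The peak at chr11:82137284-82137754 had 11.7 and 8.89 in thymocytes and 24.1 and 21.1 in brain, and is 144 kb from the coding sequence. The peak downstream of the gene had 7.62 and 6.50 in thymocytes and 7.76 and 7.29 in brain, with overlapping values. The second shared peak of Ccl8, downstream of the gene, had 5.08 and 5.20 in thymocytes and 8.62 in brain replicate 2, and was not listed in brain replicate 1.

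**Figure D2:**
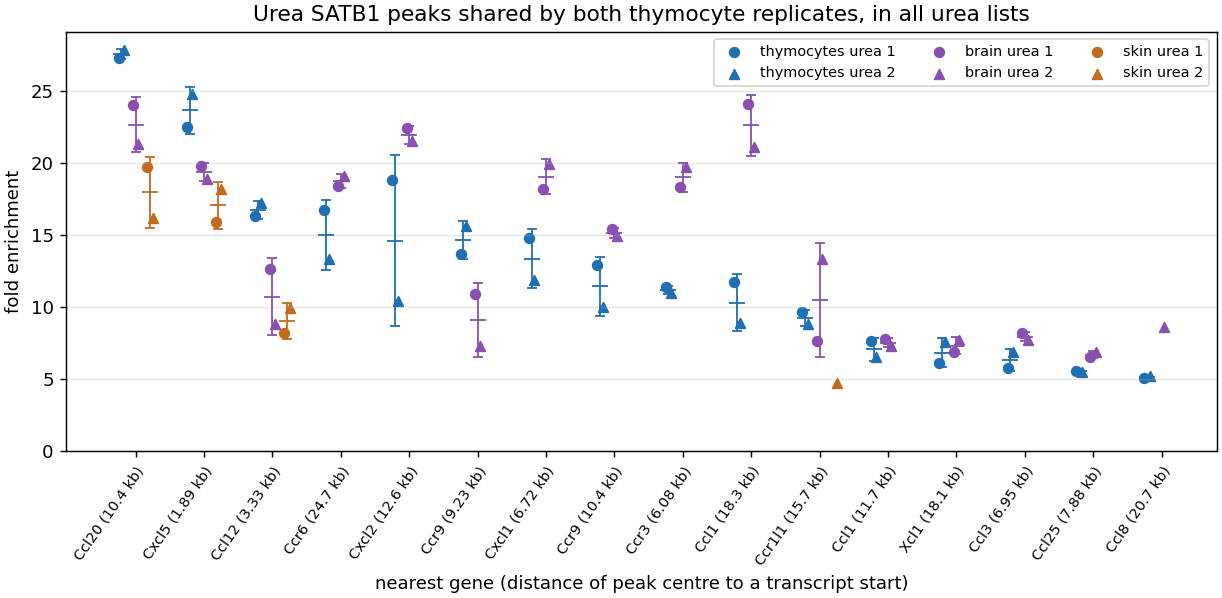
Fold enrichment (vertical axis) of the 16 urea SATB1 peaks shared by both thymocyte replicates in the chemokine windows, ordered by their thymocyte mean, in the 6 urea lists. Points are replicates, bars are mean and SD (n = 2) where both replicates had a peak; values for skin are present at Ccl20, Cxcl5 and Ccl12 in both replicates and at Ccr1l1 in one.

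In brain, 21 of the 56 genes had a shared urea SATB1 peak (37.5%), against 57.0% of all genes, and 22 and 29 genes had one by replicate, against 63.8% and 61.9%. The joined windows held 42 and 42 urea peaks, or 17.6 and 17.6 per Mb, and the windows of all genes held 37.4 and 34.6 per Mb. Every one of the 14 genes with a shared thymocyte peak had a shared brain peak, and 15 of the 16 thymocyte peaks were present in both brain replicates. The reverse pattern, a shared thymocyte peak with no brain peak in either replicate, was found at 0 chemokine genes and at 0.422% of all genes. Shared or not, 91.3% and 88.2% of the thymocyte urea peaks in the windows overlapped a peak of brain replicate 1. Over the whole thymocyte lists 92.4% and 92.1% did, so the containment here was near the background. The brain lists were more than 2 times as long as the thymocyte lists, and the part of list length in this containment was not tested.

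A shared brain peak with no thymocyte urea peak was found at 4 chemokine genes (7.14%, against 11.4% of all genes). They included Ccr1 and Ccr2, receptors of monocytes and activated T cells, and Cxcl17, a mucosal ligand. The Ccr1 peak, over an exon, had a fold enrichment of 9.78 and 6.85. The intronic Cxcl17 peak had 10.9 and 10.2. The peak upstream of Ccr2 had 5.18 and 7.95. Ccr9 had a further brain peak at chr9:123580465-123581143, inside the neighbouring gene Slc6a20a, with 18.1 and 15.7 and no thymocyte peak. Ccl12 likewise had a brain peak with 17.1 and 12.6, 11.2 kb upstream of its start, that was not listed in thymocytes. A peak over the 3′ UTR of Cxcl2 had 18.7 and 17.4 in brain and 6.10 in thymocyte replicate 1 alone. Ccl4, a relative of Ccl3, shared the downstream peak of Ccl3, and Cxcr1 and Cxcr2, neutrophil receptors, shared 1 peak (4.98 and 7.95).

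The chemokine genes known for roles in the brain had no shared urea peak there. Of Cx3cl1, Cx3cr1, Cxcl12, Cxcr4, Cxcr7 and Cxcl14, the ligands and receptors of microglia and of neuronal migration, 0 of 6 had one, against 57.0% of all genes. Brain replicate 2 listed 1 peak each at Cxcr4 and Cxcl12. Cx3cr1 had 3 BURs and Cxcl12 had 3 in the window, and none of these genes had a shared urea peak in thymocytes or skin.

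In skin, 4 of the 56 genes had a shared urea SATB1 peak (7.14%), against 18.1% of all genes, and 5 and 6 genes had one by replicate, against 21.6% and 20.9%. The windows held 4 and 5 peaks. Those seen in 1 skin replicate were at Ccr7 in replicate 1 and at Xcl1 and Ccr1l1 in replicate 2. Of 7 chemokine genes known for roles in skin, 1 had a shared skin peak (14.3%, against 18.1% of all genes), namely Ccl20, while Ccl27a, Ccr10, Ccr6, Ccr8, Cxcl14 and Cxcl1 had none. Of 11 genes known for roles in the thymus, 3 had a shared urea peak in thymocytes (27.3%, against 39.5% of all genes), namely Ccl25, Ccr9 and Xcl1, and Ccl17, Ccl19, Ccl21a, Ccl22, Cxcl12, Ccr4, Ccr7 and Cxcr4 had none.

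The share of each urea list that fell in the chemokine windows was used to compare the tissues. This share is relative to list length but still changed with it, as the lists of equal size below show. It was 0.0511% and 0.0437% in thymocytes (0.0474% ± 0.00519, SD, n = 2), 0.0356% and 0.0385% in brain (0.0370% ± 0.00203), and 0.0357% and 0.0461% in skin (0.0409% ± 0.00737). Thymocytes and brain did not overlap, and skin overlapped both. An exact permutation test over the 90 arrangements of the 6 samples, two-sided, gave p = 0.40, with 0.0667 as the smallest p possible. For the pairs, the exact permutation p was 0.333 for thymocytes minus brain (0.0103 percentage points), 0.667 for thymocytes minus skin (0.00650) and 0.667 for brain minus skin (-0.00385). With 2 samples against 2, 0.333 is the smallest p possible, and each was 0.667 after Benjamini-Hochberg adjustment over 4 pairs. The tissues were therefore not distinguished at this sample size, and their order was not stable. Without skin replicate 2, brain minus skin was 0.00136 percentage points. With lists of equal size it was 0.0323 and thymocytes minus brain was -0.00461, and with flanks of 5 kb thymocytes minus skin was -0.00471. With the 6 lists cut to the 10846 peaks with the highest −log10 q, 8 and 9 chemokine genes had a peak in thymocytes, 6 and 8 in brain and 5 and 6 in skin. The percentages of all genes were then 18.8% and 19.5%, 15.1% and 15.8%, and 21.0% and 20.9%. The shares of these cut lists in the chemokine windows were 0.0738% and 0.0645%, 0.0645% and 0.0830%, and 0.0369% and 0.0461%.

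**Figure D3:**
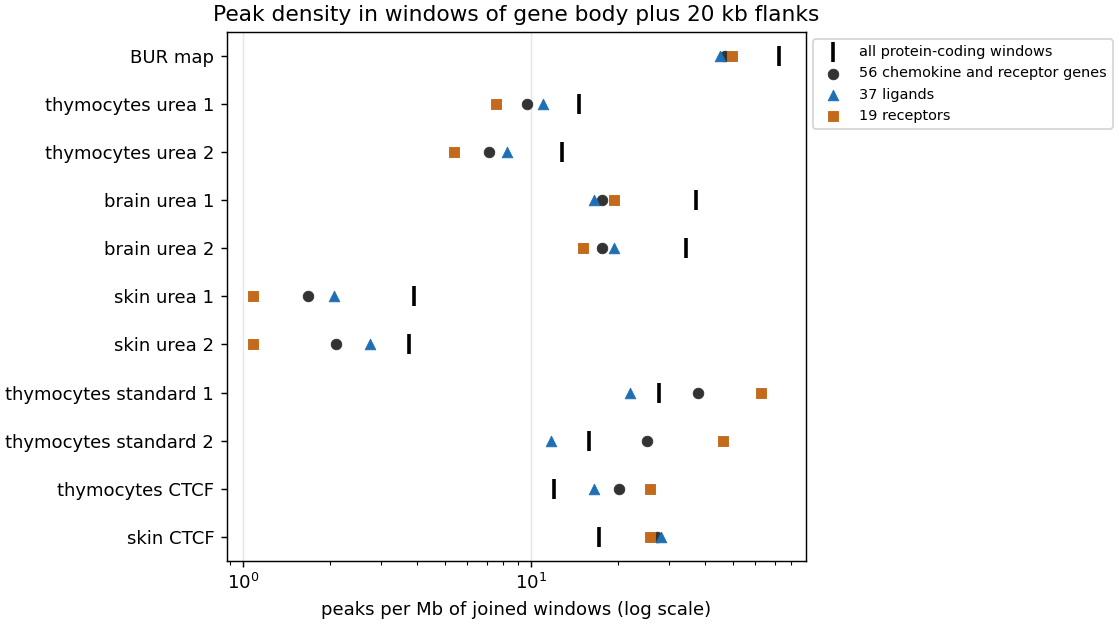
Peaks per Mb of joined windows (log scale) in each list, for the 56 chemokine and receptor genes, for ligands and receptors apart, and for all protein-coding genes. In the 6 urea SATB1 lists and the BUR map the chemokine genes lie below all genes, and in the standard SATB1 and CTCF lists above them, with 62.6 and 46.4 standard peaks per Mb at receptors.

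How many of the BURs near chemokine genes were bound in each tissue was asked next. Of the 112 BURs in the windows, 17 and 14 were overlapped by a urea SATB1 peak in thymocytes (15.2% and 12.5%), against 14.3% and 12.6% of all 238380 BURs. In brain, 30 and 29 were bound (26.8% and 25.9%), against 36.2% and 33.4%. In skin, 3 and 4 were bound (2.68% and 3.57%), against 3.68% and 3.61%. Bound in both replicates were 14 in thymocytes (12.5%, against 11.1% of all BURs), 25 in brain (22.3%, against 30.6%) and 3 in skin (2.68%, against 3.10%). The BURs near chemokine genes were thus bound at about the rate of all BURs in thymocytes and skin. In brain their rate was lower in both replicates. Both replicates score the same 112 BURs, so their spread does not measure the error of a share over so few BURs. The difference in brain was not tested. By standard ChIP-seq, 1 BUR downstream of Cxcr4 was overlapped in both replicates (0.893%, against 0.289%).

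**Figure D4:**
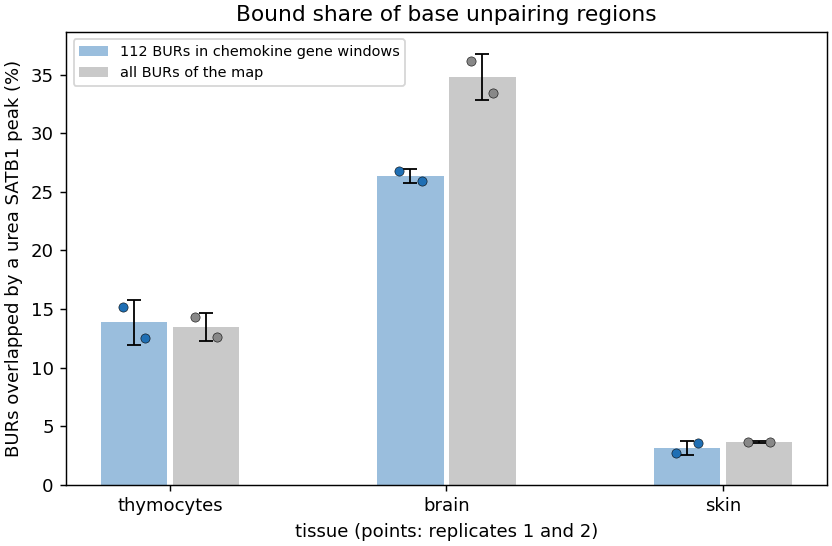
Percentage of BURs overlapped by a urea SATB1 peak in each tissue, for the 112 BURs in the chemokine windows and for all BURs of the map. Bars are means, points the 2 replicates and whiskers the SD (n = 2), which is the spread between replicates over the same BURs. In brain, both chemokine values (26.8% and 25.9%) lie below both values of the whole map (36.2% and 33.4%).

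Standard ChIP-seq of the same cell type gave peaks at other chemokine genes. In thymocytes, 19 of the 56 genes had a shared standard SATB1 peak (33.9%), against 62.0% of all genes, and 11 of the 19 were receptors. By replicate, 37 and 21 genes had a standard peak, against 75.1% and 65.4%. Receptor windows held 58 and 43 standard peaks, or 62.6 and 46.4 per Mb, and ligand windows 32 and 17, or 22.0 and 11.7 per Mb. For urea peaks of thymocytes the order was the other way, with 7.55 and 5.40 per Mb at receptors and 11.0 and 8.25 per Mb at ligands. Over all chemokine genes the density of standard peaks was 37.8 and 25.2 per Mb, above the 27.7 and 15.8 per Mb of all gene windows, while the ligand windows alone lay below it.

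Ccr9, Ccr7, Cxcr4 and Cxcr5 held the most standard peaks, by counts that do not allow for the 104 kb span of Ccr9. Ccr9 had 9 and 7 in its window, 5 of them shared, and the one at chr9:123665746-123666249 had a fold enrichment of 9.45 and 9.00. Ccr7, the receptor that leads thymocytes to the medulla and T cells to lymph nodes, had 7 and 10 standard peaks, 6 of them shared. The Ccr7 peak over the exon of its 5′ UTR, at chr11:99016288-99016856, had 10.1 and 6.58, and the peak 18.4 kb from the start had 10.0 and 8.63. Cxcr4, the Cxcl12 receptor of immature thymocytes, had 7 and 6, with 6 shared, and 9.27 and 7.47 at an intronic peak and 4.87 and 4.54 at the peak over the start. Cxcr5, the receptor of Cxcl13 that directs lymphocytes to B cell follicles, had 7 and 5, with 9.97 and 11.0 at chr9:44341170-44341661.

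The 2 replicates of standard ChIP-seq differed in antibody and sonication. Except for Ccr9, which had 3 and 2, none of these 4 receptors had a urea SATB1 peak in thymocytes. Other receptors with shared standard peaks included Ccr10, the receptor of Ccl27a, with 4 shared peaks, Ccr8 with 3, and Ccr4, Ccr2, Cxcr6 and Cx3cr1 with 2 each. For 3 of them, the peak with the highest mean fold enrichment of the gene had 11.6 and 9.48 downstream of Ccr8, where it lies in Slc25a38, 10.9 and 6.28 upstream of Ccr4, and 9.15 and 10.4 in an intron of Cx3cr1. The 4 shared Ccr10 peaks overlap the bodies of Tubg2, Cntnap1 or Ezh1. Both shared Cxcr6 peaks overlap Fyco1, and 1 of them is nearest to Ccr9. The shared peaks counted for Ccr2 are both nearest to another receptor gene. Cxcr3, the receptor of Cxcl9 and Cxcl10, had 1 standard peak in each replicate, and the 2 did not overlap.

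Among ligands, the shared standard peak near Cxcl9 had 15.6 and 8.82 and lies in the body of the neighbouring gene Sdad1. The peak downstream of Ccl1 had 13.5 and 9.12. The peak near Cxcl17 had 12.0 and 8.52 and lies in Lipe, and the peak near Cxcl16, the ligand of Cxcr6, had 11.8 and 7.0 and lies in Med11. In all, 16 of the 47 shared standard peaks overlapped the body of another protein-coding gene, and 0 of the 16 shared urea peaks of thymocytes did. A window thus does not assign a peak to the chemokine gene, and the same counts over all gene windows are not given here.

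Urea and standard peaks did not coincide in the chemokine windows. None of the 23 and 17 urea peaks of thymocytes overlapped a peak of standard replicate 1, and over the whole lists 0.895% and 1.04% did. In the other direction, none of the 90 and 60 standard peaks overlapped a peak of urea replicate 1, against 0.884% and 1.25% of the whole lists. Overlap was so rare over the whole lists that its absence here is near the background. Of the 16 shared urea peaks, 14 lay on a BUR and 0 on a thymocyte CTCF peak. Of the 47 shared standard peaks, 2 lay on a BUR and 14 on a thymocyte CTCF peak. Over all peaks in the chemokine windows, shared or not, 73.9% and 82.4% of the urea peaks of thymocytes lay on a BUR. Of the standard peaks there, 2.22% and 1.67% lay on a BUR and 26.7% and 25.0% on a thymocyte CTCF peak. Over the whole lists, also shared or not, 75.8% and 77.6% of the urea peaks lay on a BUR. Of the standard peaks of the whole lists, 3.78% and 5.20% lay on a BUR and 22.2% and 18.0% on a thymocyte CTCF peak.

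By gene, a shared standard peak with no thymocyte urea peak was found at 15 of the 56 (26.8%, against 32.4% of all genes). A shared urea peak with no standard peak was found at 6 (10.7%, against 9.93%), namely Ccl8, Ccl12, Ccl20, Ccr3, Ccr6 and Cxcl5. Both kinds of shared peak were found at 3 (5.36%, against 23.3%), namely Ccl1, Ccl3 and Ccr9. At Ccl3, the urea peak was 1.38 kb from the nearest shared standard peak. At Ccl1, the distances were 6.59 and 140 kb. At Ccr9, the distances were 13.3 and 29.3 kb.

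Most peaks of both kinds lay away from gene starts. The median distance from the centre to the nearest start was 10.4 kb over the 16 shared urea peaks and 12.7 kb over the 47 shared standard peaks. By replicate, over all peaks in the windows, it was 10.4 and 10.3 kb for urea and 8.44 and 11.7 kb for standard ChIP-seq, so the medians overlapped. No shared urea peak of thymocytes was centred within 1 kb of a transcript start of the nearest chemokine gene, and 6 of the 47 shared standard peaks were. Among them were those at Ccr4, Ccr7, Cxcr4 and Cxcr6, all receptors. Counting every peak, 0 of 23 and 1 of 17 urea peaks in thymocytes lay within 1 kb (5.88% in replicate 2), against 18 of 90 and 7 of 60 standard peaks (20.0% and 11.7%), and the difference was not tested. The same percentages at the starts of all genes are not given here, so nothing particular to chemokine genes can be read from these counts.

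**Figure D5:**
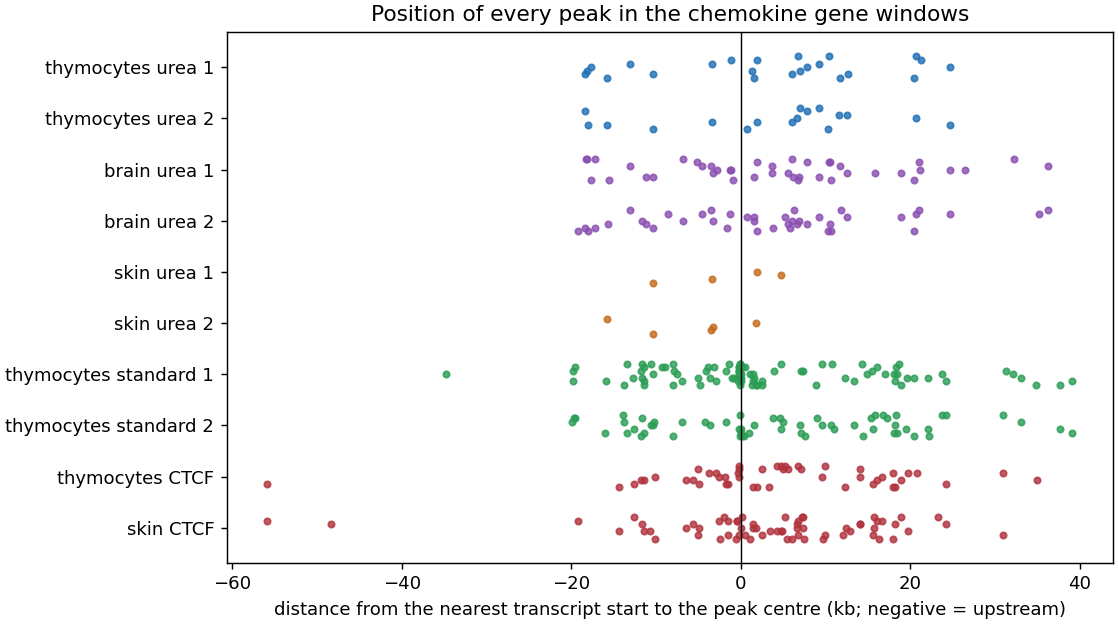
Distance in kb from the nearest transcript start of a chemokine gene to the centre of every peak in the windows (negative values are upstream), 1 row per list, with points spread vertically for legibility. Of the standard SATB1 peaks, 18 of 90 and 7 of 60 lie within 1 kb of a start, and of the urea SATB1 peaks of thymocytes 0 of 23 and 1 of 17, while most peaks of both kinds lie farther away.

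The share of the lists in chemokine windows was 0.187% and 0.221% for standard and 0.0511% and 0.0437% for urea ChIP-seq in thymocytes. The difference of 0.157 percentage points had the same sign in both replicates and was larger than the spread between them, and the exact permutation test, two-sided, gave p = 0.333, the smallest that 2 against 2 allows. Windows of all genes held 80.6% and 81.6% of the standard and 45.8% and 46.3% of the urea peaks. Standard peaks were thus the more frequent ones near genes in general. The density in chemokine windows was 1.37 and 1.60 times that in all gene windows for standard peaks. For urea peaks of thymocytes it was 0.658 and 0.557 times. The part of the general difference in the one at chemokine genes was not tested. The standard replicates differed in antibody and sonication, and the part of either in the difference was not tested.

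CTCF peaks were present in the windows of 30 genes in thymocytes (53.6%, against 61.6% of all genes) and of 41 in skin (73.2%, against 72.2%). Their density was 20.2 and 27.3 per Mb, above the 12.0 and 17.2 per Mb of all gene windows, with 1 list analysed here for either tissue. In skin, Cxcl17, Ccr8 and Ccl1 had 4 CTCF peaks each. Ccr7 had 3 in thymocytes and 2 in skin. None of the 23 and 17 thymocyte urea SATB1 peaks lay on a CTCF peak of thymocytes, and over the whole lists 0.653% and 0.728% did, so none is near the background.

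A number of chemokine genes had no SATB1 peak in any of the 8 SATB1 lists, namely Ccl19, Ccl21a, Ccl21b, Ccl21c, Ccl27b, Cxcl3, Cxcl14, Cxcl15 and Cxcr7. These 9 are 16.1% of the genes, against 5.60% of all genes. Ccl19, Ccl21a and Ccl21c, ligands of Ccr7, lie on chromosome 4 among copies of one another. Each 32-base word of their 3 windows was found again elsewhere in the assembly (100%), and for Ccl27b and Ccl21b the share was 99.9% and 98.6%. The median over the 56 genes was 10.2%, and the value at Ccl27a was 51.4%. Since the authors kept unique matches, reads that match several places were not kept. The reads were longer than 32 bases, so how many of them were lost at these genes is not known. An empty window there does not show that SATB1 was absent. Skin CTCF nonetheless listed 2 peaks each at Ccl21a, Ccl21b and Ccl21c, and the 2 at Ccl21a also fell in the window of Ccl19. All 56 genes had a peak in at least 1 of the 11 lists, and 0.606% of all genes had none.

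Other genes of the pathway, 28 genes of atypical receptors, platelet chemokines, receptor kinases and G protein signalling, were counted for reference. Their median length was 21.9 kb, against 15.5 kb for all genes. Of these, 16 had a shared urea peak in thymocytes (57.1%), 20 in brain (71.4%), 10 in skin (35.7%) and 22 a shared standard peak (78.6%). The percentages of all genes were 39.5%, 57.0%, 18.1% and 62.0%. Pf4 and Ppbp, the platelet chemokines that neighbour Cxcl5, had 1 urea peak in each of the 6 SATB1 urea lists and no standard peak. The joined locus of Cxcl5 held 1 urea peak in thymocyte replicate 2 and in each skin list, the Cxcl5 peak described above. That peak can thus be counted again for Pf4 and Ppbp, and in the totals of this set. Likewise, the shared standard peak at chr11:70249022-70249309, in the window of Cxcl16, lies in Arrb2, a gene of this set. Xcr1, the Xcl1 receptor, had 2 shared brain peaks, 1 shared skin peak and 4 shared standard peaks. Gnai2, the G protein subunit through which chemokine receptors signal, had 9 and 7 standard peaks and no urea peak. Dock2, which activates Rac downstream of these receptors, had 7 and 5 urea and 9 and 7 standard peaks in thymocytes.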

How the data were processed

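Processed peak lists of 11 of the 38 samples of the series were analysed; the others were not used here. Upstream, bowtie2 2.3.1 was run by the authors against mm9, allowing 3 seed mismatches and keeping unique matches, and MACS2 2.2.7 called peaks separately per sample at a q of 0.01. Whether an input was used is not given in the sources used here. Fold enrichment, a ratio of summit pileup to local background within 1 sample, was used as deposited. The −log10 p and −log10 q values were deposited with each peak, and the −log10 q was used for ranking. The deposited display score was not used.

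The members and gene lists were chosen with earlier results of these data known. Genes came from GENCODE vM1 and sequence from NCBIM37, the assembly of mm9. Entries with 1 symbol that overlap on 1 strand were joined (22380 identifiers to 22284 genes). Of all peaks, 28 ran past the end of a chromosome by up to 209 bp and 7704 lay on unplaced sequences; these were kept in the list totals. Peaks overlapped from 1 bp. Shares were compared by exact two-sided permutation tests over samples, with Benjamini-Hochberg adjustment over 4 pairs. Windows were joined before densities were taken. A 32-base word was counted as repeated where it or its reverse complement occurred again in the assembly.

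Genes named were those with a shared urea peak in thymocytes or skin, the 10 with the highest mean fold enrichment of a shared brain urea peak or of a shared standard peak, those without any peak, and lists of chemokine genes known in thymus, brain and skin; others named were chosen after their values were seen. Python 3.11.15, numpy 2.4.6, numba 0.67.0 and matplotlib 3.10.9 were used. Counting was tested on simulated data, in which 100% of 200 planted genes among 22284 were found. The lists hold no counts, so depth is unknown from these files and was not used here, and counting error was not estimated. Precision rests on the spread of 2 replicates. The values of 1 receptor gene are not reported here by name, and it remains in the counts over all 56 genes.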

Additional observations from a re-analysis of the deposited data

How the results depend on the processing

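The counts of genes depended on the flanks. With gene bodies alone, shared urea peaks were found at 4 genes in thymocytes, 7 in brain and 1 in skin, shared standard peaks at 10, BURs at 20, and CTCF peaks at 7 in thymocytes and 12 in skin. With flanks of 5 kb, the counts were 6, 13 and 2 for urea peaks and 19 and 23 for CTCF. With flanks of 50 kb, they were 27, 38 and 11 for urea and 36 for standard peaks. Urea lists of equal size left 8 genes in thymocytes and 6 in brain. With peaks on a BUR only, shared standard peaks remained at 1 gene. Leaving out 1 standard replicate gave 21 to 37 genes, the 37 being those of replicate 1 alone.

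The share of standard peaks exceeded that of urea peaks under each alternative run. The difference was 0.139 to 0.174 percentage points when 1 replicate was left out and 0.0422 with peaks on a BUR only. The latter rests on only 2 and 1 standard peaks in the chemokine windows, in replicates 1 and 2. The order of the tissues was not stable. With flanks of 5 kb, thymocytes minus skin was -0.00471 percentage points (exact permutation p across tissues 0.0667). With lists of equal size, thymocytes minus brain was -0.00461 and brain minus skin 0.0323 (exact permutation p 0.200). Leaving out each replicate in turn moved brain minus skin from -0.00906 to 0.00136, the latter without skin replicate 2, and the exact permutation p across tissues between 0.267 and 0.600. Permutation within replicate numbers, as a replicate block, gave p = 0.500 across tissues by the exact test. It allows fewer arrangements than the exact permutation test without blocks, whose smallest possible p was 0.0667. Neither test could fall below 0.05, so no call could change. The labels do not say that equal numbers mark a shared animal or batch. The next alternatives were chosen after seeing the data. Thymocyte lists of equal size gave a difference of standard minus urea of 0.153, and windows around the coding extent of each gene left the counts of shared urea peaks at 14, 20 and 4. No other count moved by more than 1.5 times.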
